A study of Mus musculus with 8 samples.

Results

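The genes described are 10 transcription factors and cofactors of early B-lineage specification and commitment: Tcf3, Ebf1, Foxo1, Pax5, Lef1, Bach2, Bcl11a, Ikzf1, Ikzf3 and Pou2af1. They were taken as a fixed list of names, and their Ensembl IDs were matched through the GENCODE M1 annotation of NCBIM37, the assembly also called mm9. All 10 were found among the 37991 gene IDs of the count table, and all 10 passed the filter on low counts, which left 13722 genes. The cells were B-cell-biased lymphoid progenitors (BLPs), a bone marrow population whose lymphoid potential is skewed towards B cells, sorted by flow cytometry from c-Kit-enriched marrow of mice aged 5 to 12 weeks. One group was H2afy-/- and the other H2afy+/+, with 4 pools each and no treatment in either. Every pool held RNA of 5000 to 15000 progenitors from 2 to 3 mice. The product of H2afy is the histone variant macroH2A1, and the comparison asks what its loss does to the transcripts of a progenitor on the way to the B lineage. The labels do not say which part of the allele is deleted, in which cells, or on which strain background.

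B cells arise through a relay of transcription factors. Ikaros (Ikzf1) opens lymphoid potential, E2A (Tcf3) and Foxo1 act with Ebf1 to switch on the first B-lineage genes, and Pax5 then locks in B-lineage identity by activating B-cell genes and repressing genes of other lineages. Lef1, Bach2 and Bcl11a support the survival, restraint and development of early B cells, while Aiolos (Ikzf3) and the octamer coactivator OBF-1 (Pou2af1) serve mainly at later B-cell and plasma cell stages.

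Sequence upstream of the annotated 5′ end, 250 bases long, was read for 9 of the 10 members, all but Ikzf3. The sequences of Ebf1 (chr11:44430569-44430818, plus strand), Pax5 (chr4:44724319-44724568, minus strand) and Foxo1 (chr3:52072009-52072258, plus strand), in NCBIM37 coordinates and ending on the base before the start, are shown because these 3 genes form the core of the relay and had separate levels in the genotypes. Capitals mark motif matches.
Ebf1: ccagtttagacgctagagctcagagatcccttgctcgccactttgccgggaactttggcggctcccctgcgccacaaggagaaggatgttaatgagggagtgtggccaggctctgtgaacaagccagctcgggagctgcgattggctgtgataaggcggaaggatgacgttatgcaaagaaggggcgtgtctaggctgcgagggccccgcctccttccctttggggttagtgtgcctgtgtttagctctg
Pax5: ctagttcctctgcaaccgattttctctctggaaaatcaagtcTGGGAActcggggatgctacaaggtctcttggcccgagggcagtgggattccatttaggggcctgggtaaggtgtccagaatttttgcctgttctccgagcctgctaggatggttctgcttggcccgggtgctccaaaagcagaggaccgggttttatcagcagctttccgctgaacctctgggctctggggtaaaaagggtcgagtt
Foxo1: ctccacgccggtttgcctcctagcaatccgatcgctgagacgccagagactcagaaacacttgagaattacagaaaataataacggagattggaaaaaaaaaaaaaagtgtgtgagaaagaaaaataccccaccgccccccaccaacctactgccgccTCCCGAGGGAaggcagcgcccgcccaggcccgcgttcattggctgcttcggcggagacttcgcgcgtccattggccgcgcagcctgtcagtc
Both strands were searched for an E2A-type E-box (CAGGTG), an Ebf motif (TCCCNNGGGA), a forkhead motif (GTAAACA), a Lef/Tcf motif (CTTTGA), an octamer (ATGCAAAT) and an Ikaros motif (TGGGAA). Foxo1 held 1 Ebf match, TCCCGAGGGA, which began 92 bases before the start. Pax5 held 1 Ikaros match, TGGGAA, 208 bases before the start, and the Ebf1 window held none of the 6 motifs. Of the other 6 windows, Lef1 alone held matches, an E-box 118 bases and an Ikaros motif 136 bases before its start. None of these matches overlapped another. Over the same windows of 22320 protein-coding genes, 0.793% held the Ebf motif, 21% the Ikaros motif and 17% the E-box, and the forkhead, Lef/Tcf and octamer motifs were in 2.73%, 13.4% and 1.62%. These matches describe the letters of the windows, and no binding was measured.

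Library totals ran from 21330088 to 29029765 counts per pool. Levels are in CPM, counts scaled to a common depth, over library sizes corrected by TMM, edgeR's normalisation for composition. Fold changes are log2, H2afy-/- over H2afy+/+. H2afy itself had 1659 ± 238 CPM (SD, n = 4) in H2afy-/- and 2267 ± 288 CPM (SD, n = 4) in H2afy+/+, which does not check the genotype because the deleted part is not given. The 7 markers of the sorted progenitors, among them Flt3, Il7r and Dntt, summed to 6215 to 8011 CPM in H2afy-/- and 7802 to 9320 CPM in H2afy+/+. Dntt was the largest part of this sum in every pool, with means of 4017 CPM in H2afy-/- and 5663 CPM in H2afy+/+. It is also on the list of Ebf1, Pax5 or E2A targets used below. Of the 7 markers, 4 had a negative and 3 a positive log2 fold change. Immunoglobulin genes took 0.402%, 10.0%, 39.0% and 33.4% of the counts in H2afy-/- pools 1 to 4, and 3.47%, 0.948%, 19.5% and 12.9% in H2afy+/+ pools 1 to 4. The plasma and mature B cell markers (10 matched of 11) summed to 178 to 20681 CPM and 597 to 9151 CPM in the same groups, and H2afy-/- pools 3 and 4 were the highest of the 8. Granulocyte and monocyte markers summed to 918 to 2864 CPM in H2afy-/- and 1217 to 6741 CPM in H2afy+/+, erythroid and megakaryocyte markers to 2.51 to 15.1 and 2.60 to 53.1 CPM, and plasmacytoid dendritic cell markers to 1044 to 1455 and 821 to 1169 CPM. T cell markers summed to 231 to 417 and 353 to 378 CPM, nearly all of it Lck, while Cd3d and Cd3e stayed at or below 0.540 CPM in every pool. In bulk pools, fewer cells of a type and less RNA per cell cannot be told apart.

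Mean levels in H2afy-/- were lower by 74.1% for Lef1, 62.5% for Ebf1, 60.7% for Pax5, 46.5% for Foxo1 and 32.3% for Bach2 (n = 4 pools a genotype), while Tcf3, Bcl11a and Ikzf1 differed less and Ikzf3 and Pou2af1 varied widely. Ebf1, Pax5, Foxo1 and Lef1 had every H2afy-/- pool below every H2afy+/+ pool, and Bach2 was lower with a small overlap. Over all tested genes, 2.35% had such separate groups with H2afy-/- lower and 2.18% with H2afy-/- higher, against 4 and 0 of the 10 members. The members were chosen with earlier results of these data known, so contrasts with all genes describe them and are not a test. The edgeR quasi-likelihood test called 0 of the 10 after adjustment over all 13722 genes, where it called 0% of genes lower and 0% higher. At an unadjusted p under 0.05, edgeR picked 5 members, all lower, against 3.69% of all genes lower and 3.88% higher. DESeq2 called 2 members lower (Ebf1 and Foxo1; 0.542% of all genes lower, 0.334% higher), and DESeq2 with the replicate number as a block called 5 lower (Ebf1, Pax5, Foxo1, Lef1 and Bach2; 1.58% lower, 1.66% higher). The edgeR fit with that block called 0 members, beside 0.0802% of all genes lower and 0.0292% higher. A negative log2 fold change was found in 8 of the 10 members and in 49.9% of all tested genes, and the medians were -0.42 and 0.00. The p-values reflect only how much these pools vary, and the labels do not say whether any pools had mice in common. They also do not say what a shared replicate number marks, so p-values from fits with the block rest on an assumed pairing.

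**Figure D1:**
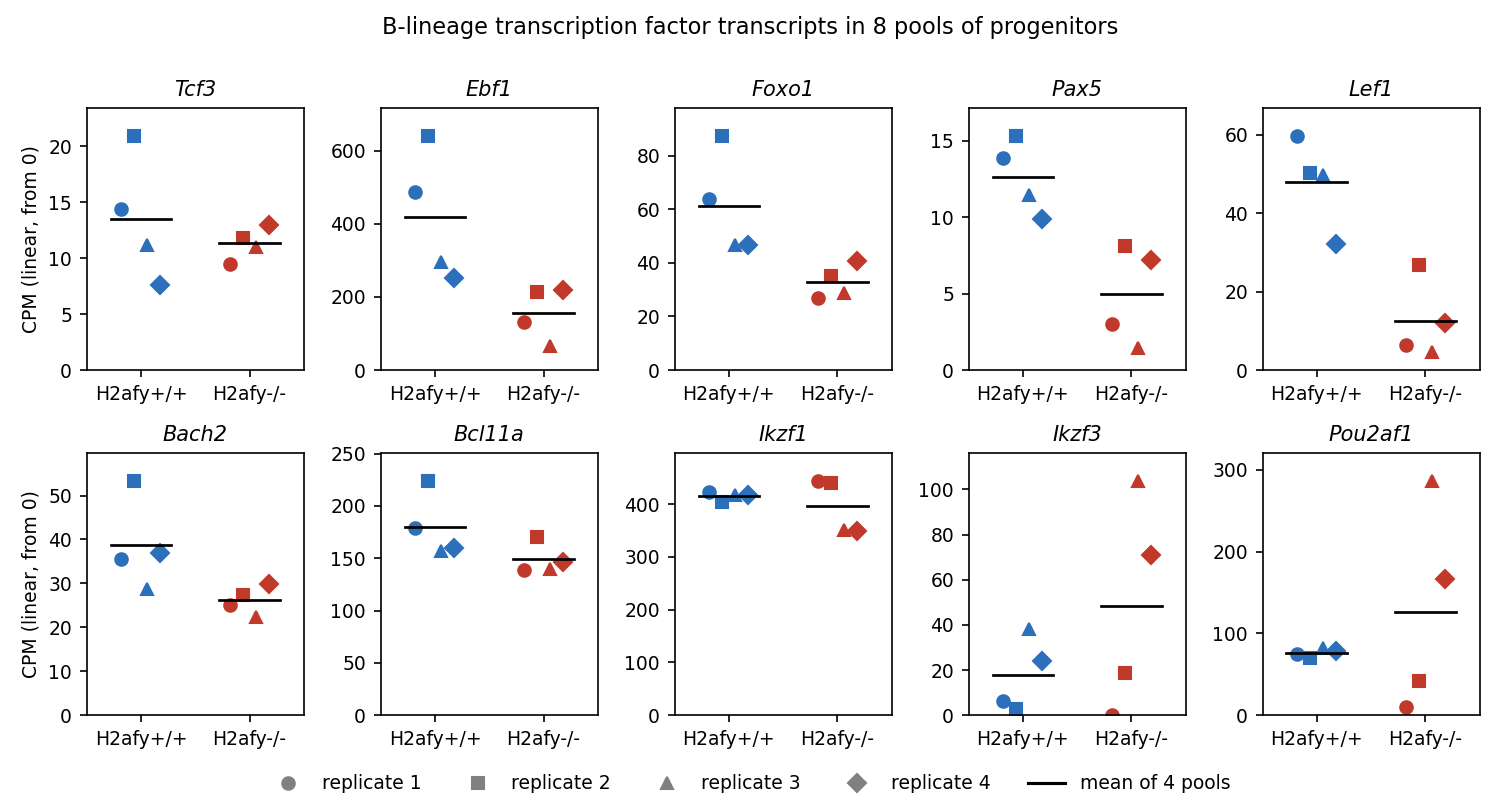
CPM of each of the 10 genes (vertical axes, linear, from 0) in the 4 H2afy+/+ pools (blue) and the 4 H2afy-/- pools (red), with marker shapes for the replicate number and a line at the mean of 4 pools. Ebf1, Foxo1, Pax5 and Lef1 have no overlap between genotypes, while Ikzf3 and Pou2af1 range from 0.222 to 104 CPM and from 9.75 to 286 CPM within H2afy-/- alone.

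Per length of transcript, the members spanned a wide range of levels in H2afy+/+. On the RPKM scale (CPM per kilobase of merged exons), Ikzf1 was the highest at 70.1 ± 1.34 (SD, n = 4), followed by Ebf1 at 42.8 ± 18.4, Pou2af1 at 29.7 ± 2.06, Bcl11a at 13.6 ± 2.33 and Foxo1 at 11.0 ± 3.45. Lef1 (5.54 ± 1.32 RPKM), Bach2 (3.71 ± 0.994), Pax5 (3.68 ± 0.708), Tcf3 (3.35 ± 1.40) and Ikzf3 (2.03 ± 1.90) made up the lower end. Neighbours in this order overlapped between pools, except Ikzf1 over Ebf1, Pou2af1 over Bcl11a and Foxo1 over Lef1. The commitment factor Pax5 was thus present at a low level beside its upstream regulator Ebf1. In H2afy-/- the mean RPKM of Ebf1 was 16.1 ± 7.52 and that of Pou2af1 49.1 ± 49.3, so their order by mean was the opposite of that in H2afy+/+, although the pools of both genes overlapped in both genotypes.

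Tcf3 encodes the E proteins E12 and E47, which act with Ebf1 at the start of the relay. Tcf3 (ENSMUSG00000020167, chromosome 10, 79872259 to 79896392, minus strand) had 9.49, 11.8, 11.0 and 13.0 CPM in H2afy-/- pools 1 to 4, and 14.4, 20.9, 11.2 and 7.59 CPM in H2afy+/+ pools 1 to 4. The lowest of all 8 pools was H2afy+/+ pool 4 and the highest H2afy+/+ pool 2, so the groups overlapped throughout. Tcf3 had a log2 fold change of -0.25 (SE 0.28; edgeR adjusted p 0.867), which was 0.032 without H2afy+/+ pool 2. No difference in Tcf3 was detectable with these pools.

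Ebf1 is the specification factor that opens B-lineage chromatin. Ebf1 (ENSMUSG00000057098, chromosome 11, 44430819 to 44821593, plus strand) had 131, 214, 65.0 and 218 CPM in H2afy-/- pools 1 to 4, and 486, 640, 294 and 252 CPM in H2afy+/+ pools 1 to 4. All 4 H2afy-/- pools lay below all 4 H2afy+/+ pools, with H2afy-/- pool 4 and H2afy+/+ pool 4 closest to each other. The H2afy-/- mean was 37.5% of the H2afy+/+ mean, and the log2 fold change was -1.41 (SE 0.45). Its edgeR adjusted p was 0.509, and DESeq2 gave adjusted p values of 0.0183 without and 0.0194 with the replicate block. Within each genotype the levels still varied, by 3.36-fold between the highest and lowest H2afy-/- pools and by 2.54-fold in H2afy+/+. Without H2afy-/- pools 3 and 4, the pools with the most immunoglobulin transcripts, the log2 fold change of Ebf1 was -1.27. A second ID with this symbol, an annotated pseudogene that shares 453 exonic bases with Ebf1, had a count of 0 in every pool.

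A transcript on the opposite strand within the Ebf1 gene was lower as well. Gm12158 (ENSMUSG00000085784, chromosome 11, 44473024 to 44476178, minus strand) shares no exonic base with Ebf1. It had 2.64, 7.96, 2.30 and 5.78 CPM in H2afy-/- pools 1 to 4, and 14.6, 22.6, 10.9 and 15.5 CPM in H2afy+/+ pools 1 to 4. The groups did not overlap. Gm12158 was at -1.77 (SE 0.40), where edgeR gave an adjusted p of 0.400, and 0.0466 with the replicate block. The library kit does not mark strand, so reads of this transcript and of unspliced Ebf1 RNA cannot be told apart.

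Foxo1 is a forkhead factor that acts with E2A and Ebf1 and activates the recombinase genes. Foxo1 (ENSMUSG00000044167, chromosome 3, 52072259 to 52154031, plus strand) had 26.8, 35.0, 28.6 and 40.5 CPM in H2afy-/- pools 1 to 4, and 64.0, 87.2, 46.8 and 46.8 CPM in H2afy+/+ pools 1 to 4. The groups did not overlap, and the gap between H2afy-/- pool 4 and the lowest H2afy+/+ pools was small beside the range within H2afy+/+. The mean in H2afy-/- was 53.5% of that in H2afy+/+, a log2 fold change of -0.90 (SE 0.22) with an edgeR adjusted p of 0.419. DESeq2 gave an adjusted p of 0.0273, or 0.00159 with the replicate block. An annotated antisense transcript that shares 674 exonic bases with Foxo1 did not pass the filter on low counts.

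Pax5 is the commitment factor of the lineage. Pax5 (ENSMUSG00000014030, chromosome 4, 44544017 to 44724318, minus strand) had 3.02, 8.13, 1.46 and 7.21 CPM in H2afy-/- pools 1 to 4, and 13.8, 15.3, 11.5 and 9.84 CPM in H2afy+/+ pools 1 to 4. Again the groups did not overlap, and H2afy-/- pools 3 and 1 were the lowest, as for Ebf1 and Lef1. The mean in H2afy-/- was 39.3% of that in H2afy+/+, with a log2 fold change of -1.34 (SE 0.46) and an edgeR adjusted p of 0.519. DESeq2 gave an adjusted p of 0.0902, and 0.00374 with the replicate block. Counts were low, at 24 reads in the lowest pool and 410 in the highest, so counting error is larger here than for Ebf1.

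Lef1, a high-mobility-group factor of the Wnt pathway that early B-cell precursors use for proliferation and survival, had the largest fold difference of the 10 members. Lef1 (ENSMUSG00000027985, chromosome 3, 130813389 to 130927274, plus strand) had 6.29, 26.7, 4.55 and 12.1 CPM in H2afy-/- pools 1 to 4, and 59.6, 50.2, 49.6 and 32.2 CPM in H2afy+/+ pools 1 to 4. Every H2afy-/- pool was below every H2afy+/+ pool, and within H2afy-/- the highest pool was 5.88-fold above the lowest. The H2afy-/- mean was 25.9% of the H2afy+/+ mean, and the log2 difference was -1.95 (SE 0.55; edgeR adjusted p 0.473). DESeq2 gave adjusted p values of 0.0707 without and 0.00865 with the replicate block.

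Bach2 and Bcl11a differed less. Bach2, a repressor that restrains myeloid genes and plasma cell differentiation (ENSMUSG00000040270, chromosome 4, 32325779 to 32673083, plus strand), had 25.0, 27.3, 22.3 and 29.9 CPM in H2afy-/- pools 1 to 4, and 35.6, 53.2, 28.8 and 37.0 CPM in H2afy+/+ pools 1 to 4. A single pair of pools crossed, H2afy-/- pool 4 above H2afy+/+ pool 3. Its log2 fold change was -0.56 (SE 0.19), with an edgeR adjusted p of 0.510 and a DESeq2 adjusted p of 0.245, or 0.0430 with the replicate block. Bcl11a, a zinc finger factor needed for the earliest B-cell precursors (ENSMUSG00000000861, chromosome 11, 23978056 to 24074123, plus strand), had 139, 171, 140 and 147 CPM in H2afy-/- pools 1 to 4, and 179, 223, 157 and 159 CPM in H2afy+/+ pools 1 to 4. H2afy-/- pool 2 lay inside the H2afy+/+ range, and Bcl11a was at -0.27 on the log2 scale (SE 0.14), with an edgeR adjusted p of 0.703, and of 0.346 with the replicate block. In all 4 same-numbered pairs the H2afy-/- pool was the lower one, for Bach2 and for Bcl11a. With few pools out of order, many other pairings would give the same count, and the labels do not say that the numbers mark pairs. Without H2afy+/+ pool 2, the highest pool for Bach2 and Bcl11a, the log2 fold changes were -0.37 for Bach2 and -0.15 for Bcl11a.

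The 5 tested transcripts annotated within the spans of Bach2 and Bcl11a had low levels. D130062J21Rik, Gm11932 and 7SK within Bach2 had log2 fold changes of -0.66 (SE 0.37), -0.34 (SE 0.40) and -0.61 (SE 0.53). Gm12064 and 4930538E20Rik, on the strand opposite to Bcl11a, were at -0.86 (SE 0.51) and 0.11 (SE 0.53), and 4930538E20Rik shares 316 exonic bases with Bcl11a. All 5 overlapped between the genotypes, with edgeR adjusted p values of 0.723 to 0.978. Without H2afy+/+ pool 2, D130062J21Rik was at -0.28. Gm12000, opposite to Ikzf1, was at -0.04 (SE 0.27).

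Within H2afy+/+ Ikzf1 was the steadiest member, but not within H2afy-/-. Ikzf1 (ENSMUSG00000018654, chromosome 11, 11585006 to 11672929, plus strand) had 443, 441, 350 and 349 CPM in H2afy-/- pools 1 to 4, and 423, 404, 417 and 417 CPM in H2afy+/+ pools 1 to 4. The H2afy+/+ pools varied by 1.90% (coefficient of variation) and the H2afy-/- pools by 13.4%, against 9.91% for Bcl11a in H2afy-/-, while H2afy-/- split into a pair of pools above and a pair below the whole H2afy+/+ range. Ikzf1 had a log2 fold change of -0.07 (SE 0.13; edgeR adjusted p 0.937). Pools 3 and 4, the low pair, were those with the highest immunoglobulin share, and without them the log2 fold change was 0.10 and both remaining H2afy-/- pools lay above all 4 H2afy+/+ pools.

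**Figure D2:**
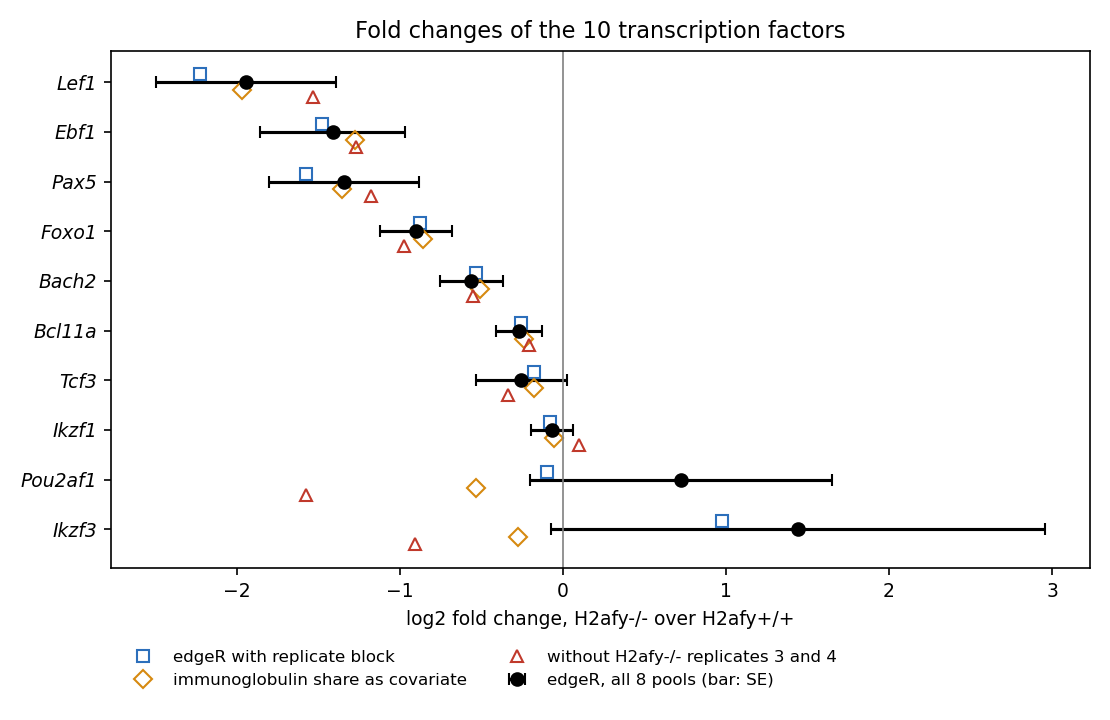
Log2 fold change, H2afy-/- over H2afy+/+, of the 10 genes in edgeR over all 8 pools (black, bar: SE), with the replicate block (blue), with the immunoglobulin share as a covariate (orange) and without H2afy-/- pools 3 and 4 (red). The 7 genes from Lef1 (-1.95) to Tcf3 (-0.25) stay below 0 in all 4 fits, whereas Pou2af1 (0.72) is above 0 in the first fit only.

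Ikzf3 and Pou2af1 behaved unlike the rest, with the widest spread between pools of one genotype. Ikzf3, which encodes Aiolos (ENSMUSG00000018168, chromosome 11, 98326216 to 98407345, minus strand), had 0.222, 18.9, 104 and 71.0 CPM in H2afy-/- pools 1 to 4, and 6.15, 2.57, 38.3 and 24.2 CPM in H2afy+/+ pools 1 to 4. H2afy-/- held both the lowest pool, with a count of 7, and the highest. Ikzf3 had a log2 fold change of 1.44 (SE 1.52; edgeR adjusted p 0.865), which was 0.76 without H2afy-/- pool 3 alone. Pou2af1 (ENSMUSG00000032053, chromosome 9, 51021795 to 51048184, plus strand) had 9.75, 41.4, 286 and 167 CPM in H2afy-/- pools 1 to 4, and 75.0, 69.6, 81.9 and 78.5 CPM in H2afy+/+ pools 1 to 4. Its 4 H2afy+/+ pools varied by 6.93%, and H2afy-/- had a pair of pools below and a pair above them. The log2 fold change of Pou2af1 was 0.72 (SE 0.93), with an edgeR adjusted p of 0.897, and it was -0.066 without H2afy-/- pool 3 alone and 1.10 without H2afy-/- pool 1 alone.

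The order of the pools in both genes was set beside the immunoglobulin share of counts. For Ikzf3 the 8 pools ranked exactly as they did by immunoglobulin share (Spearman's rho = 1.0, exact permutation p = 4.96e-05, the smallest a 2-sided rank correlation over 8 pools can give; adjusted 0.000496 over the 10 members). Pearson's r on log2 scales was 0.985 (exact permutation p = 2.48e-05, adjusted 0.000248), and 0.977 once the 2 pools with the most extreme shares relative to the median were left out. For Pou2af1 rho was 0.93 (exact permutation p = 0.00223, adjusted 0.0112) and r was 0.81 (p = 0.00935, adjusted 0.0468), or 0.68 without the 2 farthest pools. Both genes ranked the 4 pools of each genotype as the share did. Within H2afy+/+, however, the highest pool was 14.9-fold above the lowest for Ikzf3 and only 1.18-fold for Pou2af1. Within H2afy-/- these ranges were 466-fold and 29.3-fold, so the Pou2af1 relation rests mainly on the H2afy-/- pools. Of the 13722 tested genes, 44 ranked the pools in this order, 6 of them immunoglobulin genes. Among the other 8 members the smallest adjusted permutation p was 0.231, for Ikzf1, and Ebf1 had r = -0.35 (exact permutation p = 0.400). All tests were 2-sided, and the labels give no batch.

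With the log2 immunoglobulin share as a covariate, the edgeR log2 fold changes of Ikzf3 and Pou2af1 became -0.28 (SE 0.31) and -0.53 (SE 0.76). Without H2afy-/- pools 3 and 4 they were -0.91 (SE 1.90) and -1.57 (SE 0.54). The same fits gave -1.28 and -1.27 for Ebf1, -1.35 and -1.18 for Pax5, -0.86 and -0.98 for Foxo1, and -1.97 and -1.54 for Lef1. With the covariate all 10 members were below 0, at a median log2 fold change of -0.52. Over all tested genes, 6983 of 13722 were below 0, at a median of -0.00484. Ikzf3, Pou2af1, Ikzf1 (-0.05, SE 0.12) and Tcf3 (-0.18, SE 0.30) lay less than their SE below 0. Without H2afy-/- pools 3 and 4 the groups were separate for 7 members, 6 lower (Ebf1, Pax5, Foxo1, Lef1, Bach2 and Pou2af1) and Ikzf1 higher. With 2 pools against 4, such separation held for 7.56% of all tested genes lower and 7.06% higher. The plasma and mature B cell marker sums ranked the pools as the immunoglobulin share did. The immunoglobulin J chain gene Igj, 1 of these markers, gave the same ranking alone. It made up 18967 of 20681 CPM in H2afy-/- pool 3 and 32.4 of 178 CPM in H2afy-/- pool 1. The part of plasma and mature B cells in the Ikzf3 and Pou2af1 levels was not tested.

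**Figure D3:**
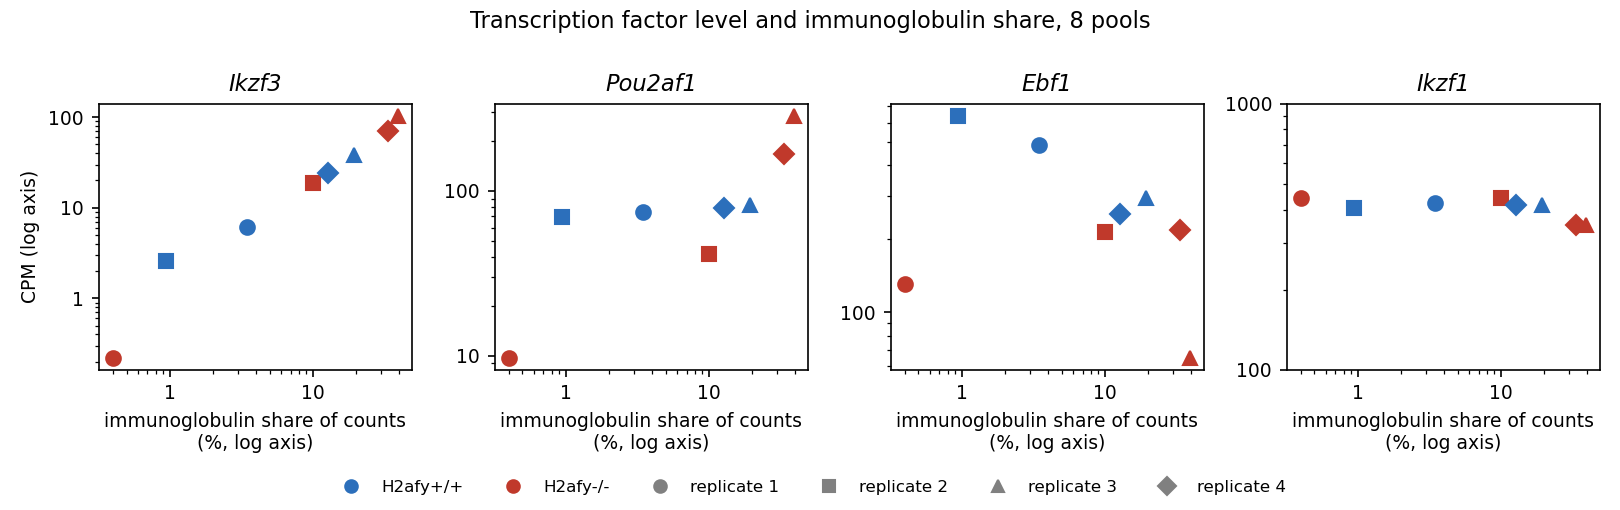
CPM (vertical, log axis) of Ikzf3, Pou2af1, Ebf1 and Ikzf1 against the immunoglobulin share of counts (horizontal, percent, log axis) in the 8 pools, coloured by genotype and shaped by replicate number. Ikzf3 ranks the pools as the share does, across both genotypes (rho = 1.0), while the 4 H2afy-/- pools of Ebf1 lie below the 4 H2afy+/+ pools. The highest H2afy+/+ share is 19.5%, so H2afy-/- pools 3 and 4, at 39.0% and 33.4%, have no H2afy+/+ pool at a like share.

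Partners and relatives of the members differed little as a group. Of 19 listed genes 18 were tested, 10 with a negative and 8 with a positive log2 fold change, and their median was -0.05. No gene of this list passed edgeR with or without the block. Id3, an inhibitor that binds E proteins and keeps them off DNA, was the exception in its pools, with 3.87, 11.1, 4.37 and 14.2 CPM in H2afy-/- pools 1 to 4, and 44.6, 27.3, 23.7 and 17.3 CPM in H2afy+/+ pools 1 to 4. Id3 was lower in all 4 H2afy-/- pools, at a log2 fold change of -1.75 (SE 0.48), the list's 1 gene with separate groups. Over all tested genes, 2.35% were separate and lower, and DESeq2 called 0.542% lower. For Id3 the edgeR adjusted p was 0.467, and the DESeq2 adjusted p was 0.00427, or 0.0752 with the block. Its binding partner E2A, by contrast, had overlapping groups at the transcript level. Mafk, a small partner of Bach proteins, and Bcl11b, the T-lineage relative of Bcl11a, were at 0.47 (SE 0.22) and -1.47 (SE 1.03), and their groups overlapped. Single pools moved both, Mafk to 0.30 without H2afy-/- pool 4 and Bcl11b to -0.52 without H2afy+/+ pool 3.

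Among 22 other lymphoid transcription factors, 9 log2 fold changes were negative and 13 positive, with a median of 0.06. Irf8, which directs dendritic cell and monocyte development and also acts in B cells (ENSMUSG00000041515, chromosome 8, 123260258 to 123280594, plus strand), was the list's 1 gene with every H2afy-/- pool above every H2afy+/+ pool. Irf8 had 318, 272, 355 and 353 CPM in H2afy-/- pools 1 to 4, and 122, 164, 180 and 174 CPM in H2afy+/+ pools 1 to 4. The groups were far apart, with a log2 fold change of 1.02 (SE 0.15), and the edgeR adjusted p was 0.0722, or 0.0420 with the replicate block. Irf8 is also 1 of the 6 plasmacytoid dendritic cell markers, all of which had positive log2 fold changes (median 0.50), and the part of such cells in the Irf8 level was not tested. One factor of this list, Foxp1, was lower with separate groups (log2 fold change -0.29, SE 0.11), and was chosen after its values were seen. Over all tested genes, 2.18% had separate groups with H2afy-/- higher and 2.35% with H2afy-/- lower, beside 1 each way of these 22.

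Listed target genes that Ebf1, Pax5 or E2A are known to activate were mostly lower in H2afy-/-. All 21 were tested, 16 of them below 0 in log2 fold change, against 49.9% of all tested genes, and the median was -0.62. The groups were separate in 11 of the 21, all lower in H2afy-/-, against the 2.35% of all genes given above. This list, like the other lists, was chosen with earlier results of these data known. Its contrast with all genes is therefore a description and not independent support. The edgeR test called 0 of them without the block, where it called 0% of all genes. With the block it called 2, Rag1 and Arpp21, both lower, beside 0.0802% of all genes lower. DESeq2 called 5 (0.542% of all genes lower) and DESeq2 with the block 13 (1.58% of all genes lower), all lower.

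Rag1, whose product cuts DNA during antigen receptor gene assembly (ENSMUSG00000061311, chromosome 2, 101478439 to 101489658, minus strand), had 63.8, 93.5, 24.1 and 71.3 CPM in H2afy-/- pools 1 to 4, and 213, 320, 116 and 143 CPM in H2afy+/+ pools 1 to 4. Its log2 fold change was -1.65 (SE 0.47), with an edgeR adjusted p of 0.475, and of 0.0467 with the block. H2afy-/- pool 3, the lowest for Rag1, was also the lowest for Ebf1, Pax5 and Lef1. Arpp21, which encodes a cAMP-regulated phosphoprotein (ENSMUSG00000032503, chromosome 9, 111967595 to 112138442, minus strand), had 180, 206, 142 and 161 CPM in H2afy-/- pools 1 to 4, and 328, 328, 318 and 324 CPM in H2afy+/+ pools 1 to 4. Its log2 fold change was -0.91 (SE 0.13), with an edgeR adjusted p of 0.0694, and of 0.0420 with the block. The surrogate light chain genes were among the rest, at -1.87 (SE 0.59) for Igll1, -1.74 (SE 0.54) for Vpreb1, -1.45 (SE 0.40) for Vpreb2 and -1.88 (SE 0.56) for Vpreb3. Vpreb1 and Vpreb2 are near-identical copies that can share reads. Not all targets were lower: Cd72 (0.07, SE 0.17), Bank1 (0.05, SE 0.20), Cd22 (0.41, SE 0.43), Cr2 (0.48, SE 0.61) and Fcrla (1.67, SE 1.23) had positive log2 fold changes with overlapping groups. Fcrla was at 0.47 (SE 0.34) with the immunoglobulin share as a covariate, and at -0.91 (SE 1.19) without H2afy-/- pools 3 and 4. Those 2 fits had 16 and 18 of the 21 targets below 0. Cd72, Bank1, Cd22, Cr2, Fcrla, Vpreb1, Cplx2 and Il7r were named after their values were seen, as were the single marker genes given earlier.

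**Figure D4:**
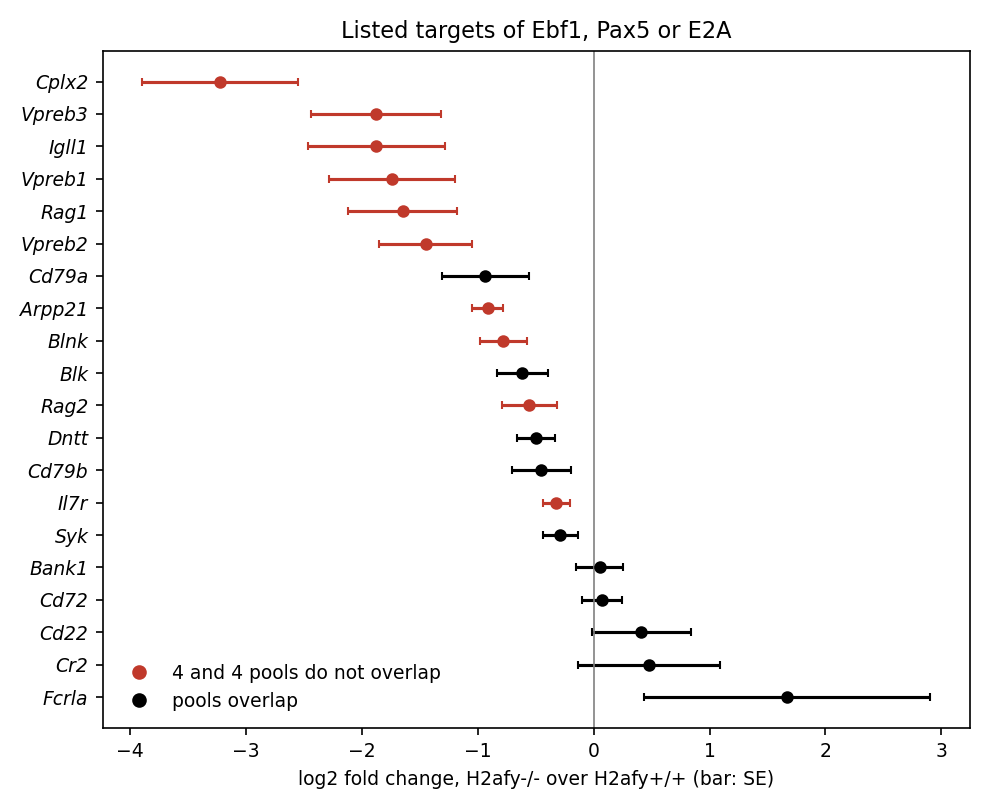
Log2 fold change, H2afy-/- over H2afy+/+, from edgeR with its SE (bars) for the listed targets of Ebf1, Pax5 or E2A, with 1 of the 21 left out, red where the 4 and 4 pools do not overlap. All red genes lie below 0, from Cplx2 (-3.22) to Il7r (-0.32), and the 5 genes above 0 overlap between genotypes.

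The listed target genes of Foxo1 did not share its direction. Of 13 genes, 5 had a negative and 8 a positive log2 fold change, the median was 0.03, and the groups overlapped in all 13. The 3 with the smallest p were Sesn1 (0.24, SE 0.12), the egress receptor gene S1pr1 (-0.67, SE 0.45) and the insulin signalling adaptor gene Irs2 (0.67, SE 0.63). S1pr1 was at -0.36 without H2afy-/- pool 3 and -1.07 without H2afy-/- pool 4, and Irs2 at 0.27 and 0.35 without those pools. No gene of this list passed edgeR or DESeq2, with or without the block, and none had an unadjusted edgeR p under 0.05. The list did not hold the recombinase genes Rag1 and Rag2 or Il7r, which were on the list of Ebf1, Pax5 or E2A targets. Rag1, Rag2 and Il7r were at -1.65 (SE 0.47), -0.56 (SE 0.24) and -0.32 (SE 0.12), all with separate groups. Rag2 and Il7r were named after their values were seen.

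Of 9 tested genes that Pax5 is known to repress, 2 were below 0 in log2 fold change and 7 above, against 49.9% of all tested genes below 0, and the median was 0.23. Among the 7, Notch1 (0.01, SE 0.17) and Flt3 (0.06, SE 0.14) were near 0. Ly6a, the highest (1.34, SE 0.71), was at -0.33 without H2afy-/- pools 3 and 4. Notch1, Flt3 and Ly6a were named after their values were seen. Neither edgeR nor DESeq2 called any of the 9, and DESeq2 with the block called 1, which was higher (1.66% of all genes higher). Cd28, which encodes a T-cell costimulatory receptor, had 87.5, 110, 125 and 98.0 CPM in H2afy-/- pools 1 to 4, and 28.2, 17.4, 80.1 and 57.0 CPM in H2afy+/+ pools 1 to 4. It was the 1 gene of this list with separate groups (2.18% of all genes are separate and higher), at a log2 fold change of 1.20 (SE 0.45), with an edgeR adjusted p of 0.603 and a DESeq2 adjusted p of 0.0774, or 0.0470 with the block. Within both genotypes Cd28 was highest in pool 3, the pool with the highest immunoglobulin share. The chemokine receptor gene Ccr2 and the macrophage growth factor receptor gene Csf1r were at 0.89 (SE 0.37) and 0.65 (SE 0.30), with overlapping groups, and Csf1r was at 0.41 without H2afy+/+ pool 2.

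Regulators of other fates gave no common direction, with 5 negative and 7 positive log2 fold changes among 12 genes and a median of 0.09. All 12 overlapped between the genotypes and none passed either test. The myeloid factor Cebpa was at 1.0 (SE 0.44), with means of 2.27 CPM in H2afy-/- and 1.13 CPM in H2afy+/+, and at 0.59 without H2afy-/- pool 2. The erythroid factors Gata2 and Gata1 were at -1.37 (SE 0.65) and -1.52 (SE 0.75), and at -0.86 and -0.80 without H2afy+/+ pool 4 alone. Gata1 was highest in H2afy+/+ pools 4 and 1, at 24.8 and 10.9 CPM, which also had the highest erythroid and granulocyte marker sums, and the part of such cells was not tested.

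Ebf1 and Pax5 were also compared with every other gene by their pattern over the 8 pools, among 9597 tested genes outside the members with a mean of at least 5 CPM. Closest to Ebf1 in log2 CPM were Igll1 (Pearson's r = 0.994), Gfra2 (0.994), Vpreb2 (0.990), Pde2a (0.990) and Vpreb3 (0.984). Close to Pax5 were Pde2a (0.973), Mmrn1 (0.970), Igll1 (0.970) and Vpreb3 (0.969). Pde2a, Igll1 and Vpreb3 stood on both lists. Igll1 had 143, 314, 68.1 and 330 CPM in H2afy-/- pools 1 to 4, and 910, 1252, 593 and 381 CPM in H2afy+/+ pools 1 to 4, the same order of pools as Ebf1. These correlations are descriptions over 8 pools that share genotype and library, picked as the highest of many.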

How the data were processed

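The table deposited by the authors holds raw counts (whole numbers, not normalised) for each Ensembl gene in 8 pools. Single reads of 50 bases were mapped by HISAT2 2.0.6 on mm9, per the submitters' processing notes, and the labels name DESeq2. The counter, its annotation and strand were not given in the sources used here, and the low-input kit does not mark strand. GENCODE M1 named 37205 of the 37991 IDs, and 786 had no match.

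Counts were tested with edgeR 4.0.16 (quasi-likelihood, TMM, filterByExpr with a minimum count of 10, robust) in R 4.3.3 over all 8 pools, with Benjamini-Hochberg adjustment over 13722 genes and a threshold of 0.05. Log2 CPM used a prior count of 2. The scripts were tested on simulated data. The biological coefficient of variation was 0.390. All pairs of pools differed by more than sampling noise (chi-square over degrees of freedom of at least 92.2). The alternatives tried were DESeq2 1.42.0, edgeR with RLE and upper-quartile factors, 2 filters, a replicate block, immunoglobulin genes left out or their share as a covariate, and pools left out.

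Named were the members, H2afy, tested genes overlapping a member, the 5 genes most like Ebf1 and Pax5, and, from each list, genes past the threshold with or without the block or else the 3 with the smallest p. The result of 1 of these genes is not reported here. The members, lists and this rule were chosen with earlier results of these data known. The groups share replicate numbers in the labels. Deviations of same-numbered pools correlated across genes at r = 0.19, 0.19, 0.36 and 0.41, all over 0.1, so the numbers were read as pairs. The 0.1 mark does not set pairs apart, as H2afy-/- 4 and H2afy+/+ 3 also passed it (0.17). H2afy-/- 1 correlated more with H2afy+/+ 2 (0.52) and H2afy-/- 3 with H2afy+/+ 4 (0.45), which makes the pairing a hint, not a fact of the design.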

Additional observations from a re-analysis of the deposited data

Results flagged for a closer look

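Of 80 groups of 4 pools (40 named genes in each genotype), 4 had a pool whose gap to its nearest neighbour, divided by the range of the group, exceeded Dixon's critical value for 4 samples, and chance gives about 1 in 20 groups. None of the 10 transcription factors was among them. Sesn1 was lowest in H2afy-/- pool 3, at 145 CPM against 178 to 183 in the others, a ratio of 0.860. Csf1r was lowest in H2afy+/+ pool 2, at 9.17 CPM against 22.2 to 23.8 in the others, a ratio of 0.886. D130062J21Rik, within the Bach2 gene, was highest in H2afy+/+ pool 2, at 9.32 CPM against 3.83 to 4.59 in the others, a ratio of 0.862. Gm12064, opposite to Bcl11a, was lowest in H2afy-/- pool 1, at 0.190 CPM against 0.464 to 0.485 in the others, a ratio of 0.928.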

How the results depend on the processing

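The edgeR test called 0 genes over all genes, and also 0 with RLE factors and without both H2afy-/- pools 3 and 4. It called 5 with upper-quartile factors, 16 with no filter on low counts, 2 with a filter of 5 CPM in 4 samples, 3 without immunoglobulin genes, 3 with their share as a covariate and 15 with the replicate block, DESeq2 called 126 and DESeq2 with the replicate block 485. With 1 pool left out in turn edgeR called 0 to 1, and the 1 came without H2afy-/- pool 4. Of the 10 members, DESeq2 called 2 and DESeq2 with the replicate block 5, and all other settings called 0, the edgeR replicate block and each pool left out included. Groups were separate for 4 members, for 4 to 5 with 1 pool left out, and for 7 without both H2afy-/- pools 3 and 4. Log2 fold changes changed sign for Tcf3 (0.032 without H2afy+/+ 2, otherwise down to -0.45 with 1 pool left out), Ikzf1 (0.10 without H2afy-/- 3 and 4), Ikzf3 (-0.28 with the immunoglobulin covariate, -0.91 without H2afy-/- 3 and 4) and Pou2af1 (-0.10 with the edgeR replicate block, -0.11 with the DESeq2 replicate block, -0.53 with the covariate, -0.066 without H2afy-/- 3 and up to 1.10 with another pool left out, -1.57 without H2afy-/- 3 and 4). They also did for Irs2 (-0.85 without H2afy-/- 3 and 4), Gm12000 (-0.24 to 0.090 with 1 pool left out, above 0 without H2afy-/- 1, H2afy-/- 2, H2afy+/+ 3 or H2afy+/+ 4) and 4930538E20Rik (-0.23 to 0.44 with 1 pool left out, below 0 without H2afy-/- 4 or H2afy+/+ 1, and -0.20 without H2afy-/- 3 and 4). The causes were not tested. Ebf1 ranged from -1.61 to -1.13 over the settings, Pax5 from -1.69 to -1.04, Foxo1 from -1.02 to -0.69, Lef1 from -2.64 to -1.54, Bach2 from -0.68 to -0.37 and Bcl11a from -0.34 to -0.15. Besides Rag1, Arpp21, Irf8 and Gm12158, which passed with it, the edgeR replicate block changed no call of a named gene. The low counts of Pax5 and Ikzf3 limit their precision.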
